A study of Homo sapiens with 20 samples.

Results

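HIF1A binding was examined at the 10 genes that encode the enzymes of lower glycolysis and the A subunit of lactate dehydrogenase, out of 20163 protein-coding genes of the annotation. These were ALDOA and ALDOC (aldolases), TPI1 (triosephosphate isomerase), GAPDH (glyceraldehyde phosphate dehydrogenase), PGK1 (phosphoglycerate kinase), PGAM1 (phosphoglycerate mutase), ENO1 and ENO2 (enolases), PKM (muscle pyruvate kinase) and LDHA. The genes were chosen by their place in the pathway, but with earlier results of these data known. Other isoenzymes of the same steps were left out and are counted separately below. A peak was assigned to a gene when its centre lay between 10 kb upstream of the start and 10 kb past the end of the GENCODE release 44 gene record in GRCh37. Binding was measured by ChIP-seq (DNA recovered with a HIF1A antibody was sequenced) in HCT116 and RKO (colon carcinoma lines) and in A549 and H460 (lung carcinoma lines). All 4 are established human cancer lines. Cells were held for 24 h either in normoxia, in ordinary humidified incubator air with added CO2, or in hypoxia at 1% oxygen. Each line and condition had 2 replicate ChIP libraries and each line 1 input library of genomic DNA. The authors merged the replicates before calling peaks, so there were 8 peak lists and no value below has a replicate error.

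Depth ranged from 41.2 M to 81.5 M tags a merged library, where M stands for 1000000. The lists held between 287 and 2092 peaks in normoxia and between 3877 and 9171 in hypoxia. The signal is the normalized tag count, the tags in a peak per 10 M tags of its library, and its 95% intervals are exact Poisson intervals that cover counting error only. Peak width was fixed within a list, and the fold over input required for a call was set line by line, at 7 for HCT116, 6 for RKO, 13 for A549 and 14 for H460. Immunoprecipitation efficiency may differ between libraries and was not measured on its own here. The authors chose these required folds from the tags in peaks that all lines shared, to allow for such differences between lines. The titles and the descriptions of the RKO and A549 input libraries name different lines, and all input libraries carry HCT116 as their source name. Which input served which list is therefore uncertain from the labels, although the file headers name an input of the same line. This touches the fold over input and so which peaks were called, the normoxia calls of RKO and A549 included, but not the signal of a called peak.

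Lower glycolysis turns fructose bisphosphate into pyruvate and yields ATP, and lactate dehydrogenase then reduces pyruvate to lactate and restores the NAD+ that GAPDH consumes. HIF1A is the oxygen-labile subunit of a transcription factor. Oxygen-dependent prolyl hydroxylases mark it for degradation, and when oxygen is scarce it pairs with ARNT at hypoxia response elements, whose core is ACGTG or GCGTG. Glycolytic genes are among the textbook targets of this factor.

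The 57 hypoxia peaks in the windows of the 10 genes joined, by overlap of at least 1 bp, into 23 regions. Of these, 10 were called in the hypoxia lists of all 4 lines, 2 in 3 lines and 11 in 1 line. The same split over all hypoxia regions is not given here, so these counts only describe the 10 genes. The following 30 bases are shown because they hold, for each of the 12 regions called in at least 3 lines, an ACGTG close to the peak centre. They are in GRCh37, 5′ to 3′ on the strand given, with the core in capitals, and 2 are given for GAPDH, PKM and LDHA.
ALDOA, chr16:30076870-30076899, minus strand: cacccccctcggACGTGactcggaccacat
ALDOC, chr17:26903925-26903954, plus strand: tgtcgcagagctACGTGactcctccggggg
TPI1, chr12:6977239-6977268, minus strand: gagtctggggctACGTGcggcggcgcacgg
GAPDH distal, chr12:6642679-6642708, minus strand: ccccgccctgggACGTGcaggcgagccagg
GAPDH proximal, chr12:6643546-6643575, minus strand: gaggcctgagctACGTGcgcccgtaaaacc
PGK1, chrX:77359531-77359560, plus strand: gcggcgtgccggACGTGacaaacggaagcc
PGAM1, chr10:99185766-99185795, plus strand: ctccgcgtgcttACGTGcgctccgtgactg
ENO1, chr1:8939091-8939120, minus strand: gggactcggagtACGTGacggagccccgag
ENO2, chr12:7023614-7023643, plus strand: acccgcgctcgtACGTGcgcctccgccggc
PKM near site, chr15:72522854-72522883, plus strand: gcgggggagcggACGTGaccagcaagcagg
PKM far site, chr15:72519205-72519234, plus strand: ttgttccctcctACGTGcagacaagcacaa
LDHA, chr11:18416024-18416053, minus strand: gggggccggcggACGTGcgggaacccacgt
LDHA second core, chr11:18416012-18416041, plus strand: agcccgactcacACGTGggttcccgcacgt

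In hypoxia, each of the 10 genes had a peak in each of the 4 lines. The background, the share of all protein-coding genes with a peak in the same window, was 19.9% for HCT116, 28.3% for RKO, 21.5% for A549 and 18.4% for H460, and 3.26% of protein-coding genes had a peak in all 4 hypoxia lists. In normoxia the count was 0 of 10 for HCT116 (background 1.29%), 3 of 10 for RKO (6.93%), 6 of 10 for A549 (2.76%) and 1 of 10 for H460 (3.81%). The number of bound genes was higher in hypoxia in 4 of 4 lines, by 7.5 ± 2.65 genes (SD, n = 4 lines). The exact two-sided sign-flip permutation test over the lines gave p = 0.125, below which 4 lines cannot go. With a fold over input of at least 14, the normoxia count was 1 of 10 for RKO and 5 of 10 for A549. Where the local fold had to reach 6, it was 1 of 10 for RKO and 4 of 10 for A549. The H460 normoxia count was 0 of 10 when peaks without an input tag were left out. No member was without a hypoxia peak in any line. ALDOC, TPI1 and ENO2 had no normoxia peak in any line.

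The strongest peak of each gene was high in its hypoxia list. Its median signal over the 10 genes was 19.8 tags per 10 M for HCT116, 20.7 for RKO, 54.2 for A549 and 55.8 for H460. The median over all peaks of these lists was 3.07, 3.29, 3.87 and 6.47, and over the peaks within 500 bp of any MANE Select start it was 4.05, 4.33, 6.66 and 7.08. A MANE Select start is the 5′ end of the transcript chosen to represent a gene. Among the 634 other protein-coding genes that had a peak in all 4 lists and shared none with a member, the median of the strongest peak was 8.83, 6.88, 15.4 and 19.2, and 10, 9, 10 and 9 of the 10 genes lay above it, the exceptions being TPI1 in RKO and ENO2 in H460. The strongest peaks of 10, 10, 10 and 9 of the 10 genes were within the top 10% of their list, and 2, 3, 3 and 3 were among the top 10 peaks of the list. All peaks in the 10 windows made up 0.350%, 0.131%, 0.296% and 0.387% of the peaks of a list and held 1.98%, 0.849%, 1.82% and 1.57% of the tags in its peaks.

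**Figure D1:**
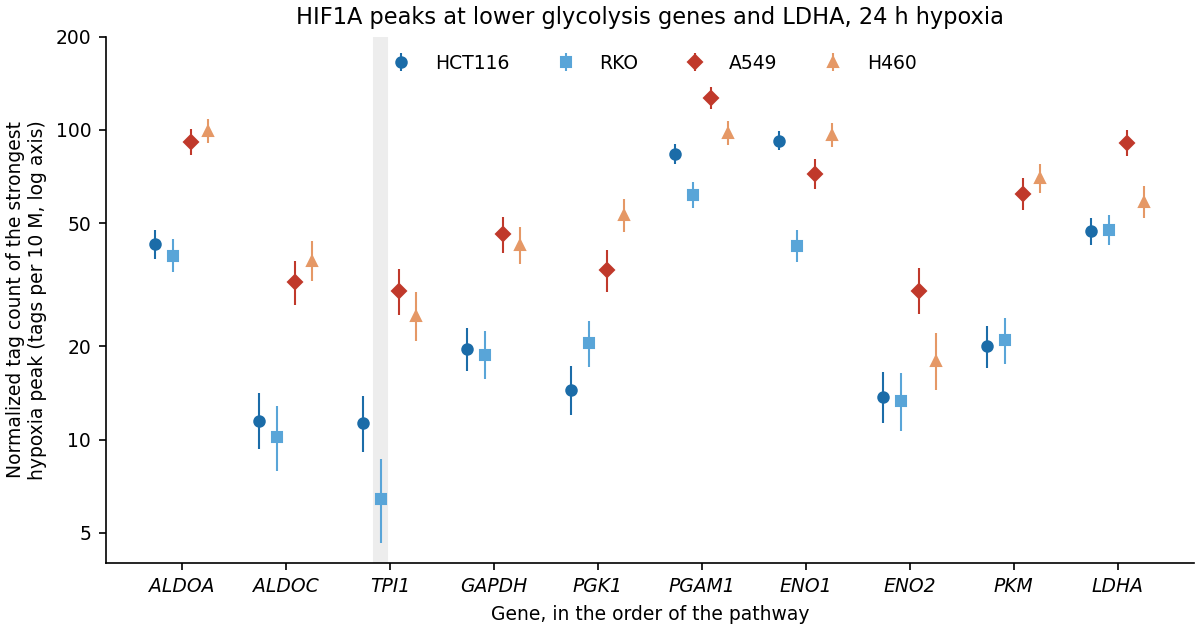
Normalized tag count (tags per 10 M, log axis) of the strongest hypoxia peak of each gene, by line, with bars for the 95% counting interval of 1 merged library. PGAM1 lay between 61.7 and 126.7 and TPI1 between 6.43 and 30.1. The shaded RKO value of TPI1 belongs to another site than in the other lines. The GAPDH value is that of the proximal region in HCT116 and RKO and of the distal region in A549 and H460.

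Aldolase splits fructose bisphosphate into the triose phosphates. At ALDOA, the main aldolase of most tissues, the strongest peak had 42.8 tags per 10 M for HCT116, 39.3 for RKO, 91.3 for A549 and 99.1 for H460. Both lung lines lay above both colon lines, and within each pair the counting intervals overlapped (38.4 to 47.5 and 34.7 to 44.4 in the colon lines, 82.8 to 100.4 and 90.5 to 108.3 in the lung lines). The 4 peak centres lay within 5 bp of each other, between -211 and -206 bp from the MANE Select start, a position inside an intron of the longer ALDOA gene record. At ALDOC, the brain-type aldolase, the values were 11.5, 10.2, 32.2 and 37.8 in the same order of lines. ALDOC was thus lower than ALDOA in each line, and its centres, between -66 and -20 bp, spread over 46 bp, the widest spread of the 12 regions.

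TPI1 interconverts the triose phosphates. Its region lay in an intron of the MANE Select transcript, between 534 and 574 bp past the start. The centres were -35 bp (HCT116), -11 bp (A549) and 5 bp (H460) from the start of another annotated TPI1 transcript. This region had 11.3 tags per 10 M in HCT116, 30.1 in A549 and 25.1 in H460. It was not called in RKO, where an uncalled site has no value in the list. RKO instead had a peak of 6.43 at 5018 bp past the start and downstream of TPI1, 736 bp from the nearest transcript start, one of SPSB2. TPI1 was therefore the only member with no region shared by all 4 lines, and its RKO count rests on a peak with 43 tags.

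GAPDH catalyses the oxidative step. It had 2 upstream regions in each of the 4 lines, centred between -977 and -964 bp and between -166 and -142 bp. The distal region had 18.5 tags per 10 M for HCT116, 12.4 for RKO, 46.0 for A549 and 42.5 for H460, and lay -55 to -42 bp from the start of GAPDH-DT, the divergent transcript of the locus. The proximal region had 19.6, 18.8, 45.3 and 26.7. The balance of these regions differed between the merged libraries of the lines, with intervals that cover counting error only. The distal to proximal tag ratio was 0.659 for RKO (95% interval 0.493 to 0.876), 0.944 for HCT116 (0.751 to 1.19), 1.01 for A549 (0.835 to 1.23) and 1.59 for H460 (1.27 to 1.99), so that the interval of RKO lay below 1 and that of H460 above it. The proximal H460 peak had no input tag. A549 had a further peak of 31.8 tags per 10 M in an intron, 199 bp past the start, which was called in no other hypoxia list.

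PGK1 forms ATP from bisphosphoglycerate. Its region had 14.5 tags per 10 M for HCT116, 20.5 for RKO, 35.2 for A549 and 53.0 for H460. The counting intervals of A549 (30.0 to 41.0) and H460 (46.8 to 59.8) did not overlap, while those of HCT116 and RKO met at 17.2 to 17.3. The centres lay between -224 and -214 bp from the MANE Select start. The PGK1 gene record is 218557 bp long and begins 194 kb further upstream, so this position counted as intronic in the record. PGAM1 moves the phosphate of phosphoglycerate. It had 83.8, 61.7, 126.7 and 97.7 tags per 10 M, was first or second among the 10 genes in each line and varied 2.05-fold over the lines. The centres lay between -156 and -145 bp. The start of the RRP12 gene record, at 35 bp from the middle of the region, was nearer than that of PGAM1, although the MANE Select start of RRP12 was 24701 bp away. The peaks cannot be assigned to PGAM1 rather than RRP12 from position alone.

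The enolases form phosphoenolpyruvate. At ENO1, the broadly expressed isoform, the values were 92.4 for HCT116, 42.2 for RKO, 72.2 for A549 and 96.4 for H460. ENO1 was the only member at which a colon line exceeded a lung line, HCT116 (interval 85.9 to 99.2) over A549 (64.6 to 80.3), and its peak ranked 1 of 3996 in HCT116 with PGAM1 at rank 2. The region was centred between -348 and -335 bp from the MANE Select start, in the UTR of the longer ENO1 record. At ENO2, the neuronal isoform, the values were 13.7, 13.3, 30.3 and 18.0. ENO2 was lower than ENO1 in each line, and in H460 its peak fell outside the top 10% of the list (the top 14.5%). The ENO2 centres lay between -116 and -102 bp.

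PKM makes pyruvate and a further ATP. Its strongest peak was not at the start but at a far site in an intron, between 4292 and 4306 bp past the MANE Select start, with 20.0 tags per 10 M for HCT116, 20.9 for RKO, 62.3 for A549 and 69.8 for H460. A near PKM region, also intronic and 640 to 652 bp past the start, had 7.60 in HCT116, 25.8 in A549 and 28.5 in H460 and was not called in RKO. The ratio of the near to the far PKM region had overlapping intervals in the 3 lines, at 0.380 for HCT116 (0.279 to 0.513), 0.414 for A549 (0.332 to 0.514) and 0.409 for H460 (0.334 to 0.499). LDHA reduces pyruvate to lactate. It had 47.0, 47.7, 90.8 and 58.6 tags per 10 M, with centres between -82 and -56 bp, and with 1.93-fold it had the smallest range over the lines.

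**Figure D2:**
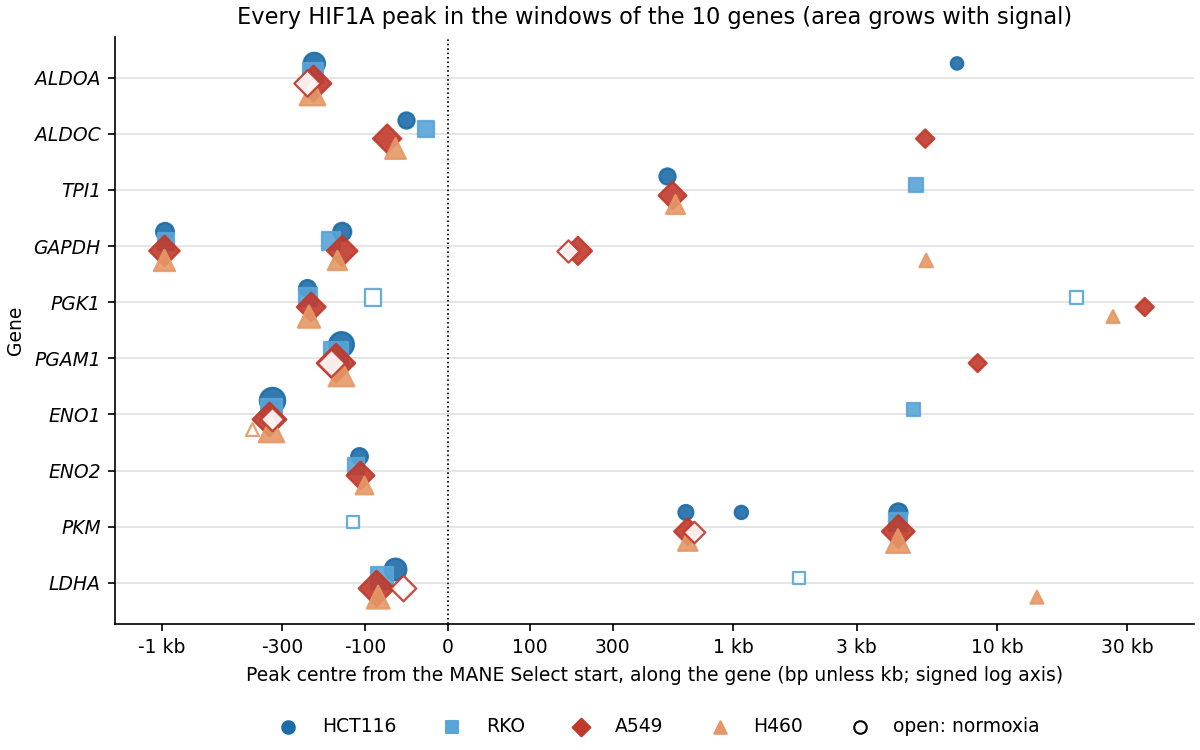
Centre of every peak in the 10 windows against the MANE Select start, along the direction of the gene (signed log axis, bp or kb), by line and condition, filled for hypoxia and open for normoxia, with larger markers for higher signal. The regions called in at least 3 lines stack within 46 bp. In 8 genes they include a site less than 350 bp upstream of the start, and in TPI1 and PKM they lie past it. The 11 peaks called in 1 hypoxia list have at most 6.43 tags per 10 M, apart from 31.8 at GAPDH.

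Ordered by level, PGAM1, ENO1 and ALDOA were among the 4 strongest members in each line, LDHA in 3 lines and PKM in 1. ALDOC, TPI1 and ENO2 took the lowest 3 places in each line. In HCT116 the order was ENO1, PGAM1, LDHA, ALDOA, PKM, GAPDH, PGK1, ENO2, ALDOC and TPI1, and in H460 it was ALDOA, PGAM1, ENO1, PKM, LDHA, PGK1, GAPDH, ALDOC, TPI1 and ENO2. Of the 9 neighbouring pairs in the order, the counting intervals overlapped in 7 for HCT116, 7 for RKO, 6 for A549 and 7 for H460. In HCT116 the intervals parted between PGAM1 and LDHA and between ALDOA and PKM, and in H460 between ENO1 and PKM and between ALDOC and TPI1. Peak width was the same for all genes of a list, but the windows ran with the gene record, from 3830 bp at TPI1 to 218557 bp at PGK1 before the flanks, and the part of window length in the order was not tested.

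RKO had the lowest value for 7 members and HCT116 for 3, while A549 had the highest for 5 and H460 for 5. At 9 of the 10 genes both lung lines exceeded both colon lines. The same held at 68.1% of the 634 other protein-coding genes bound in all 4 lists, so the direction was shared with most bound genes. Summed over the 10 genes, the signal of the strongest peak was 356.6 for HCT116, 281.0 for RKO, 617.1 for A549 and 598.0 for H460. For TPI1 and GAPDH the strongest peak was not at the same site in all lines. With 2 lines a side the exact two-sided permutation test gave p = 0.333, the smallest it can give, and differences in immunoprecipitation between the libraries cannot be told apart from differences between the tissues. Relative to HCT116 the sum was 0.788 for RKO (0.743 to 0.836), 1.73 for A549 (1.64 to 1.82) and 1.68 for H460 (1.59 to 1.77).

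Peaks called in normoxia were then compared with the hypoxia peaks of the same line. HCT116 had none at the 10 genes. In A549, the 6 normoxia peaks ranked between 12 and 80 of 526 and held 2.82% of all tags in peaks of that list. All 6 overlapped a hypoxia peak, where 176 peaks of the line were called in both conditions and the normoxia list held 526. PGAM1 had 28.4 tags per 10 M in normoxia and 126.7 in hypoxia, a log2 ratio of 2.16 (95% interval 1.87 to 2.46). ALDOA had 23.8 and 91.3 (1.94, 1.62 to 2.27), LDHA 20.4 and 90.8 (2.16, 1.82 to 2.51) and ENO1 12.9 and 72.2 (2.49, 2.07 to 2.94). Over all 176 A549 peaks called in both conditions the median was 1.27, which lay below the intervals of these 4 genes.

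The other 2 normoxia peaks of A549 were not at the strongest hypoxia site of their gene. At GAPDH the normoxia peak was the intronic one near the start (10.2 in normoxia, 31.8 in hypoxia, log2 ratio 1.64, 1.14 to 2.17), and neither upstream region was called in normoxia. At PKM it was the near region (8.73 and 25.8, log2 ratio 1.56, 1.01 to 2.14), and the stronger far region was called in hypoxia alone. The intervals of the GAPDH and PKM ratios both included the A549 median of 1.27. By the exact conditional binomial test of tags against library totals, with Benjamini-Hochberg adjustment over the shared peaks of the line, 6 of 6 A549 member peaks were higher in hypoxia, the largest adjusted p being 2.57e-09 at PKM, beside 73.3% of all A549 peaks called in both conditions. The test sets 2 merged libraries against each other rather than the conditions, and a peak had to pass the caller's filters in both lists to enter it.

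In H460 the only normoxia peak was at ENO1, with 3.57 tags per 10 M (19 tags, no input tag) against 96.4 in hypoxia. The log2 ratio was 4.76 (4.10 to 5.50, exact conditional binomial test, adjusted p = 4.95e-122), where the median over the 45 shared H460 peaks was 1.64 and 82.2% of them were higher in hypoxia. The normoxia centre lay 74 bp from the hypoxia centre. In RKO, 98 peaks of the line were called in both conditions, where the normoxia list held 2092. At the 10 genes, 1 of 4 RKO normoxia peaks overlapped a hypoxia peak. This was PGK1, with 12.6 tags per 10 M in normoxia and 20.5 in hypoxia (log2 ratio 0.70, 0.24 to 1.17, exact conditional binomial test, adjusted p = 0.0181, beside 14.3% of all shared RKO peaks higher in hypoxia). These PGK1 peaks overlapped by 13 bp only, with centres 136 bp apart, and the difference did not pass when peak width was entered (log2 ratio 0.46, adjusted p = 0.287 by the same exact test). The other RKO normoxia peaks were weak, with 3.99 in an intron of PGK1, 3.33 upstream of the PKM MANE Select start and 3.55 in an intron of LDHA, and none of these coincided with a hypoxia peak.

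**Figure D3:**
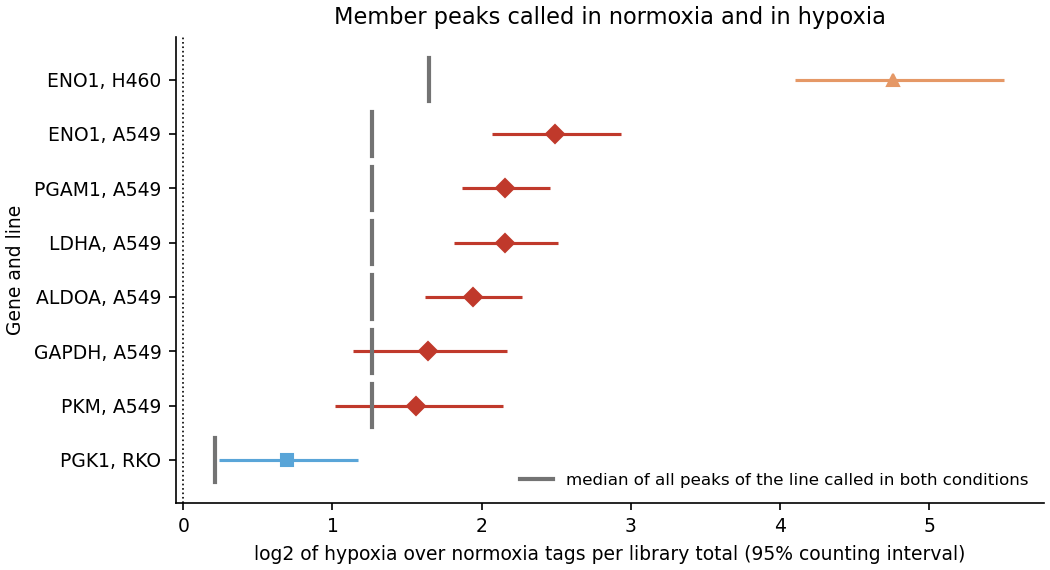
Log2 ratio of hypoxia to normoxia tags, each per library total, at the 8 member peaks called in both conditions of a line, with 95% counting intervals, and grey bars at the median of all peaks of that line called in both. ENO1 in H460 stood at 4.76, the A549 peaks between 1.56 and 2.49 and PGK1 in RKO at 0.70.

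The 12 regions shared by at least 3 lines were read for the core. All 46 of their peaks held ACGTG in the 200 bp at the centre, and the nearest ACGTG or GCGTG on either strand lay at most 38 bp from the centre, with a median of 12 bp. The 12 regions held 28 matches, 18 of ACGTG and 10 of GCGTG, between 1 (ALDOA, ENO2 and the far PKM region) and 4 (PGK1 and ENO1) in a region. LDHA alone held the palindrome CACGTG, which reads as a core on both strands, and the second LDHA sequence above shows it. The 200 bp of the 12 regions had a GC content between 60% and 78%.

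Over all member hypoxia peaks, ACGTG or GCGTG was present in 14 of 14 for HCT116, 11 of 12 for RKO, 13 of 16 for A549 and 13 of 15 for H460. The share over all peaks of the list was 65.1%, 30.5%, 52.4% and 76.9%, and for ACGTG alone it was 41.0%, 19.7%, 38.3% and 55.6%. Each of the 12 regions held an ACGTG followed by A or C, as the sequences above show. ACGTGA or ACGTGC was present in 29.8% of all hypoxia peaks for HCT116, 13.5% for RKO, 27.1% for A549 and 40.9% for H460. These letters were chosen after the sequences had been read, so the comparison is a description. The 12 regions were also kept for being called in at least 3 lines, unlike the peaks of a whole list. The share among other regions called in at least 3 lines is not given here. A match is a string of letters and not a measured site.

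**Figure D4:**
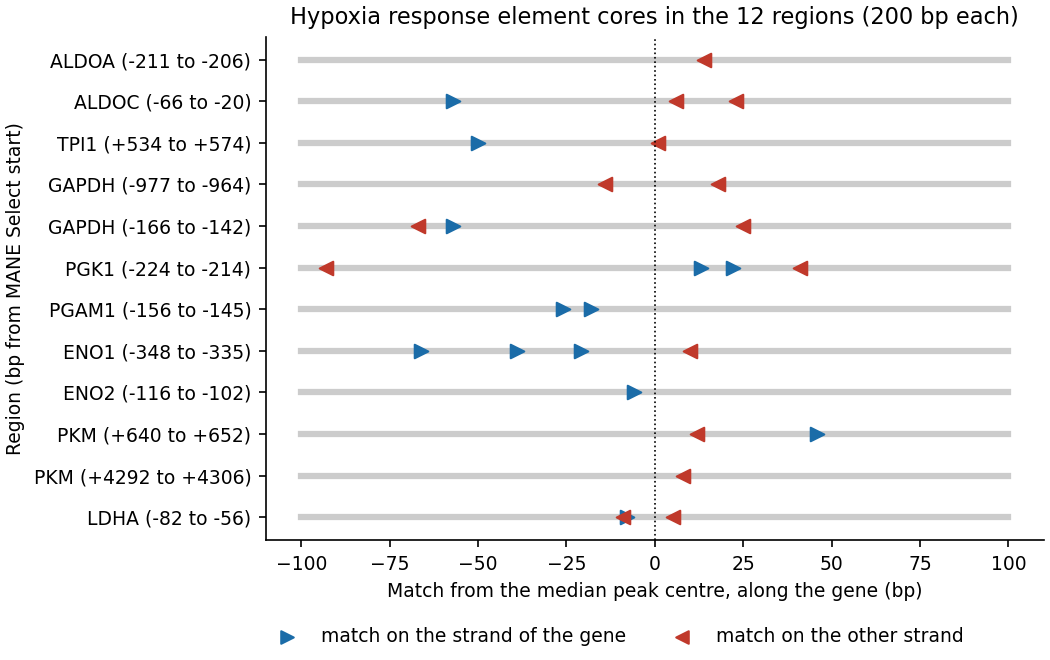
Matches to the core of the hypoxia response element in the 200 bp at the median peak centre of the 12 regions (grey bars), along the direction of the gene, with arrowheads for the strand. Of the 28 matches, at least 1 lay within 38 bp of the centre in each region, and both orientations occurred.

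The 11 peaks called in 1 hypoxia list were weak. Their median was 3.65 tags per 10 M, 9 of 11 were below 5, 5 of 11 held a core, and 3 of 11 had no input tag. A549 had 4 of them, H460 3, HCT116 2 and RKO 2. The exceptions in level were the intronic A549 peak of GAPDH (31.8) and the RKO peak downstream of TPI1 (6.43). Some lay next to other genes, such as the A549 peak of 3.65 in the window of ALDOC, 28 bp from a transcript start of PIGS.

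Other genes of glucose metabolism were counted in windows of the same rule, to be read against the background of 19.9% of protein-coding genes for HCT116, 28.3% for RKO, 21.5% for A549 and 18.4% for H460. For a peak in all 4 hypoxia lists the background was 3.26%, so that few or no genes are expected in lists this short. In upper glycolysis, the steps from glucose to fructose bisphosphate and their regulators, 5 of 13 genes had a hypoxia peak for HCT116, 8 for RKO, 7 for A549 and 7 for H460. HK2 (hexokinase), GPI (glucose phosphate isomerase), PFKL and PFKP (phosphofructokinases) and PFKFB4 (which sets the level of the phosphofructokinase activator) had a peak in all 4 lists. GPI had 71.5, 62.9, 199.1 and 83.9 tags per 10 M, above the other upper glycolysis genes in HCT116, RKO and A549, while in H460 PFKFB4 was higher with 109.4. Of the 8 gluconeogenesis genes, 5, 3, 1 and 2 had a peak, and PC (pyruvate carboxylase) alone had it in all 4 lists. Of the 17 genes of the tricarboxylic acid cycle, 2, 4, 2 and 4 had a peak. Of 13 isoenzymes of the same steps as the 10 genes, such as ENO3 and LDHB, 2, 6, 2 and 1 had a peak and 0 of 13 had it in all 4 lists. The isoenzyme with a peak in H460 was LDHC. That peak, of 3.44 tags per 10 M, also lay in the window of LDHA and was counted there too.

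Among the 634 other genes bound in all 4 hypoxia lists, the 5 whose profile of log2 signal was nearest to the median profile of the 10 genes over the 4 lines lay at only 2 sites. VKORC1, PRSS53 and ENSG00000255439 shared the same peaks, with 23.4, 24.1, 46.8 and 57.0 tags per 10 M in HCT116, RKO, A549 and H460 (distance 0.39 on the log2 scale). GNAI3 and GPR61 shared peaks of 25.0, 23.3, 50.0 and 53.0 (distance 0.40).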

How the data were processed

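Reads were aligned by the authors to GRCh37 with Bowtie2 (2.2.9), filtered for mapping quality above 10 and marked for duplicates. The 2 replicates were then merged by the authors, who called peaks with HOMER (4.3) against the input of the line, with a local fold of 3 over 10000 bp and a false discovery rate of 0.001. The deposited signal is the normalized tag count per 10 M tags, and the deposited fold ratio over input and over the local region was used for filters and descriptions. Input counts of 0.5 mark no input tag. The peak score column was not used here.

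Whole tags were recovered as signal times library total, and their sum equalled the header value in all 8 lists. Peaks were placed by centre on GENCODE release 44 mapped to GRCh37. Groups came from the sample titles. Counts of genes were compared over lines with the exact sign-flip test, and tags with the exact conditional binomial test, which was tested on simulated data. With 1 merged list a group there was no replicate error, the weakest peaks of a list rest on 11 to 20 tags, and intervals (95%) cover counting error only. Reference windows of 200 bp were read with pysam (0.24.0), and statistics were computed with SciPy (1.17.1) and statsmodels (0.14.6) in Python (3.11.15). All 10 genes were named. Other pathway genes were named when bound in all 4 hypoxia lists or as examples of a list, except for results that are not reported here, and the nearest profiles were the 5 with the smallest Euclidean distance. The genes and lists were chosen with earlier results of these data known. The alternatives were other windows, stricter filters, leaving out each line, peak width, and other motif windows. Colon against lung sums, the 500 bp promoter median and the letters after the core were added after seeing the data.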

Additional observations from a re-analysis of the deposited data

Results flagged for a closer look

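The hypoxia over normoxia log2 ratio of ENO1 was larger in H460 (4.76) than in A549 (2.49), the only member peak called in both conditions of 2 lines. The difference of 2.27, H460 minus A549, gave p = 1.83e-09 in an exact conditional test of the tags. That test compares 4 merged libraries and covers counting error only. The normoxia peak of H460 held 19 tags and no input tag and lay 74 bp from the hypoxia centre, against 53 tags and 11 bp in A549, and the part of these in the difference was not tested.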

How the results depend on the processing

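No paired analysis was possible because the authors merged the replicates of each group before calling peaks, so the lists carry no replicate numbers. This concerns pairing by replicate only, since the conditions were compared within each line. Of 114 values recomputed under an alternative, 109 kept their direction and their side of the threshold, or stayed within the set limits. Some of these could not move, such as the HCT116 normoxia count of 0 under stricter filters. Log2 ratios were also unchanged by construction where only the p adjustment or the choice of peaks differed. A fall from 10 to 7 genes bound in all 4 hypoxia lists counted as within the limits. The RKO normoxia count fell from 3 genes to 1 with a fold over input of at least 14, and to 1 where the local fold had to reach 6. Under the same settings the A549 normoxia count fell from 6 genes to 5 and to 4, which stayed within the set limits. The H460 normoxia count went from 1 to 0 when peaks without an input tag were left out, by construction, since its ENO1 peak has none. The summed RKO over HCT116 ratio moved from 0.788 to 0.729 per bp of peak width. PGK1 in RKO lost its call when width was entered, and it and ENO1 in H460 were not compared when centres had to lie within 50% of the narrower width, which left 6 of 8 peaks. All 10 genes stayed bound in all 4 hypoxia lists except under 2 settings. Within 2.5 kb of the gene-record start 7 remained (not TPI1, PGK1 and PKM), and with a fold over input of at least 14 also 7 (not ALDOC, TPI1 and GAPDH, lost in RKO, and ALDOC in HCT116 too). Leaving out a line changed no count of bound genes in all remaining hypoxia lists, and the mean difference stayed between 6.67 and 8.67 genes, where 3 lines cannot give a p below 0.25.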
